A study of Mus musculus with 8 samples.

Results

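The 10 genes described here lie on mouse chromosome 1 on either side of Erbb4, which encodes a receptor tyrosine kinase for neuregulins. They were chosen as named flanking genes of the locus, with no measured value in the rule but with earlier results of these data known. They are 10 of the 23284 gene symbols in the count files. They are not all the genes of the region, since 17 others within 3 Mb of Erbb4 were counted. Among those 17 is Lancl1, which passed the test for a difference (given below). RNA-seq had been made from E15.5 dorsal cortex in 8 libraries of C57BL/6 mice, 4 labelled WT and 4 labelled ErbB4 -/-. The question put to these genes was whether the transcripts of the neighbourhood differed between the genotypes together with the targeted gene.

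An α-MHC transgene that restores ErbB4 in heart muscle keeps germline knockouts alive, and the study's text describes earlier knockout work as done with it. Without it these embryos are lost early to heart defects. The sources used here do not say separately for these 4 libraries that the embryos carried that transgene. Embryos came from breeding cages of homozygous lines and the number of litters is not stated, so genotype, colony and litter cannot be told apart. Nothing in the labels says which libraries came from separate litters, and p-values measure the spread between these libraries. The meninges and ganglionic eminences had been removed, and transcripts of projection neurons (Tubb3, Neurod2, Tbr1 and others, 6 of 6 counted) were abundant in every library, with summed levels of 4597 to 5387 CPM (read counts scaled to a common library size) in WT and 4731 to 5055 CPM in libraries labelled ErbB4 -/-. Markers of cortical progenitors summed to 1038 to 1419 and 1083 to 1171 CPM, of ganglionic eminence and interneurons to 561 to 736 and 538 to 732 CPM, and of meninges and vessel wall to 31.3 to 33.7 and 32.6 to 40.7 CPM. Those of endothelium summed to 117 to 119.9 and 116 to 124 CPM and of microglia to 34.9 to 39.5 and 37.2 to 39.8 CPM. Red blood cell markers summed to 31.8 to 56.6 CPM in WT and 20.8 to 35.2 CPM under the other label (exact two-sided permutation test, p = 0.0571), with a median log2 fold change of −0.69 over the 4 of 9 that passed the filter on low counts. None of the markers tested was called by edgeR after adjustment, and their part in the results below was not tested.

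Genes beside a targeted locus are inherited with the targeted allele, and neighbouring genes can share regulatory DNA although their products have unrelated functions. The products here do have unrelated functions. Acadl, Rpe, Cps1 and Atic encode metabolic enzymes, Unc80 a subunit of a neuronal cation channel complex, and Vwc2l a secreted protein. Ikzf2 and Bard1 encode nuclear proteins, Spag16 a protein of motile cilia, and Abca12 a lipid transporter.

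Erbb4 occupies chr1:68078760-69154633 on the minus strand of mm9 (NCBIM37). On the side of lower coordinates lie 4 of the genes. Unc80 (plus strand) spans 66514941 to 66746440, Rpe (plus) 66747405 to 66766379, Acadl (minus) 66877413 to 66909851 and Cps1 (plus) 67169600 to 67277833. Their distances from the nearer end of Erbb4 are 1.33, 1.31, 1.17 and 0.801 Mb. On the side of higher coordinates lie the other 6. Ikzf2 (minus) spans 69577788 to 69732534, Spag16 (plus) 69873562 to 70771706 and Vwc2l (plus) 70772289 to 70931971. Bard1 (minus) spans 71074072 to 71149720, Abca12 (minus) 71289664 to 71461484 and Atic (plus) 71603724 to 71626205. Ikzf2 is the closest of these at 0.423 Mb, and Atic the farthest at 2.45 Mb, with Spag16, Vwc2l, Bard1 and Abca12 at 0.719, 1.62, 1.92 and 2.14 Mb.

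Some of these genes nearly touch. Rpe starts 964 nucleotides after the end of Unc80 on the same strand, and Vwc2l starts 582 nucleotides after the end of Spag16 on the same strand. The annotated 3′ end of Rpe overlaps 1110028C15Rik, on the opposite strand, by 563 nucleotides. The libraries did not keep the strand, so reads from that overlap cannot be assigned to either gene. By contrast 800926 nucleotides separate Cps1 from Erbb4, and 423154 nucleotides separate Erbb4 from Ikzf2.

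Promoter sequences are shown for 4 of the genes, because they cover the range from the most to the least abundant transcript of the group. RefSeq windows of 300 bases (250 before and 50 after the annotated start) were matched for 8 of the 10 genes, and each was placed on mm9 by exact match. The RefSeq table is of build GRCm38.p6. Sequences are written 5′ to 3′ on the strand of the gene, and capitals mark each CG dinucleotide, the site of DNA methylation in mammals. Atic is at chr1:71603480-71603779 (plus), Acadl at chr1:66909834-66910133 (minus), Spag16 at chr1:69873294-69873593 (plus) and Abca12 at chr1:71461435-71461734 (minus).
Atic: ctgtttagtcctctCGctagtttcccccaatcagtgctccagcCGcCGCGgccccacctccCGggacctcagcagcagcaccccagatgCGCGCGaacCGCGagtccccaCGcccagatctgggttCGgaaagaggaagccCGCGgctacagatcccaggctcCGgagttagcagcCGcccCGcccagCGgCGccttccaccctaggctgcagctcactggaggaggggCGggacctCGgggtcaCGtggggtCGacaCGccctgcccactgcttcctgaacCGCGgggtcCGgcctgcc
Acadl: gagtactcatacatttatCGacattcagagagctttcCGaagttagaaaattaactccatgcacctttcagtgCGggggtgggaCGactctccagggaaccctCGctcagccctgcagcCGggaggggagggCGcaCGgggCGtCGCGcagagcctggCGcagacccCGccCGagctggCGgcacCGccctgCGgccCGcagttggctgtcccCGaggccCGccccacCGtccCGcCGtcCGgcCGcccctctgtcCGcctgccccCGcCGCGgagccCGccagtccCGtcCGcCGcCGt
Spag16: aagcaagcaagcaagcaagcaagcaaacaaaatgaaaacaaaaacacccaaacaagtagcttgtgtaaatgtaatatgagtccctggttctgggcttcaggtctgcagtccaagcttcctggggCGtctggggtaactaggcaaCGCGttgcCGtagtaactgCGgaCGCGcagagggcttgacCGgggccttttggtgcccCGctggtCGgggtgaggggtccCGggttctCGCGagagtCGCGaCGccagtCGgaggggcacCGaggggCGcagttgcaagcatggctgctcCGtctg
Abca12: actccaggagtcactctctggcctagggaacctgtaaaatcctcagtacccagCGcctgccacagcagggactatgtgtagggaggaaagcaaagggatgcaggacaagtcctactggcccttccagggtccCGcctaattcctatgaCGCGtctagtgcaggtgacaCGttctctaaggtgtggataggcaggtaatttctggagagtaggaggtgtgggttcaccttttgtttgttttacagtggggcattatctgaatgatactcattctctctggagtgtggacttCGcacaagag

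The windows of Atic and Acadl held 27 and 34 CG dinucleotides with a GC content of 69.7% and 70.3%. That of Spag16 held 20 at 58.3% GC, and that of Abca12 held 6 at 51.3% GC. Over all 32851 RefSeq windows of this length the median was 7, 94.6% held at least 1, and 31.4% held 17 or more. Rpe and Erbb4 had 17 each and Bard1 had 23, while Unc80 had 8 and Vwc2l 6. The sequence CG reads the same on both strands, and occurrences cannot overlap. Ikzf2 and Cps1 had no matched window.

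Per length of exon, the 10 genes fell into 3 ranges of abundance. Levels are given as CPM divided by the kilobases of exon in the annotation, as the mean of all 8 libraries. Atic was the most abundant at 13.9 CPM per kb (range 13.2 to 14.5), followed by Rpe at 11.0 (9.67 to 12.2) and Acadl at 8.87 (7.81 to 10.4). Bard1 (1.91), Ikzf2 (0.861), Vwc2l (0.711) and Unc80 (0.454) formed the middle range, in which Erbb4 itself had 1.65 CPM per kb. Spag16 (0.0584), Cps1 (0.0367) and Abca12 (0.0106) were near the limit of detection. The ranges over libraries of neighbours in this order of the 10 genes overlapped, except between Atic and Rpe, Acadl and Bard1, Bard1 and Ikzf2, and Unc80 and Spag16, and the range of Erbb4 (0.728 to 2.05) overlapped those of both Bard1 and Ikzf2. Of the 14253 tested genes with an exon length, 65.7% had a level below that of Atic, 53.9% below that of Acadl and 11.1% below that of Unc80. Position did not order the levels, since Atic and Abca12 are neighbours at opposite ends of the scale.

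**Figure D1:**
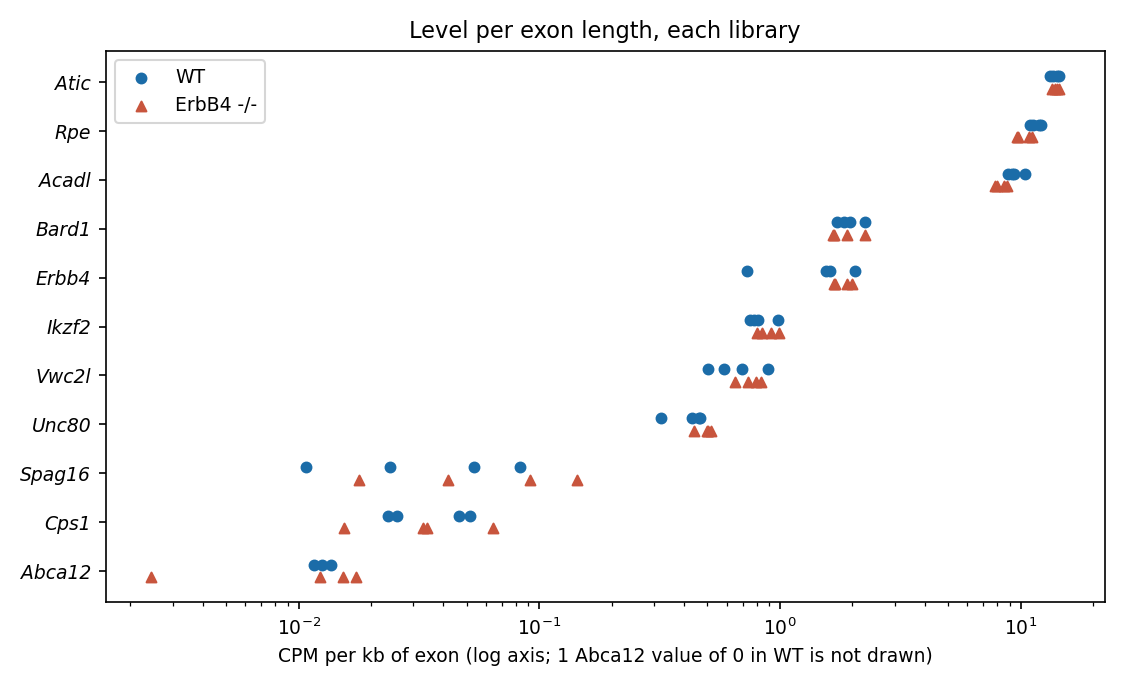
Level of the 10 flanking genes and Erbb4 in each library, in CPM per kb of exon on a log axis, with circles for WT and triangles for libraries labelled ErbB4 -/-. Atic, Rpe and Acadl lie near 10 CPM per kb, and Spag16, Cps1 and Abca12 lie more than 10 times lower than Bard1 and Erbb4 on average.

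The libraries held between 28205703 and 48871480 counts, so that 3 counts, the floor used for detection, corresponded to 0.0614 to 0.106 CPM, counting error only. Erbb4 had 8.99, 19.9, 25.3 and 19.2 CPM in WT replicates 1 to 4 and 20.9, 24.6, 20.7 and 23.5 CPM in replicates 1 to 4 labelled ErbB4 -/-. Thus the summed reads of the targeted gene were not lower under that label, and every direction below is between the libraries as labelled. The study measured ErbB4 protein by Western blot in other samples, newborn cortex and cultured neural precursors. It reports that protein levels there differed between ErbB4 -/- and WT. The counts are per gene and do not show which exons were read. WT replicate 1 stood apart on the first principal component (−38.9, the other 7 libraries being at −6.07 or above). Xist, which is transcribed from the inactive X chromosome, was at 983 to 1687 CPM in WT replicates 1 to 3 and at 2.70 to 3.82 CPM in WT replicate 4 and the 4 libraries labelled ErbB4 -/-. The Y-linked Ddx3y had 0.257 to 0.495 and 76.4 to 80.9 CPM in the same libraries, so embryo sex and genotype largely coincide and within a sex the comparison has 1 WT library against 4.

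None of the 10 genes passed the test for a difference between the libraries labelled ErbB4 -/- and WT. In edgeR's quasi-likelihood test, 7 of the 10 (all but Cps1, Spag16 and Abca12) passed the filter on low counts, and 0 of these 7 had an adjusted p under 0.05, where 0.0272% of the 14696 genes tested did (0.0068% higher and 0.0204% lower under that label). At an unadjusted p under 0.05, 1 of the 7 was called, Acadl, against 5.53% of all genes (2.52% with a lower level, as Acadl), and DESeq2 called 0 after adjustment and 2 before it, Acadl and Rpe, against 0.138% and 5.1% of all genes. The smallest adjusted p of the 7 was 0.81 in edgeR and 0.808 in DESeq2. Fitted log2 fold changes were above 0 for 4 of the 7 and below 0 for 3, with a median of 0.012 and a median size of 0.16, where the median size over all genes was 0.082 and over the other 802 tested genes of chromosome 1 was 0.086. In bulk tissue, fewer cells of a type and less RNA per cell cannot be told apart.

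**Figure D2:**
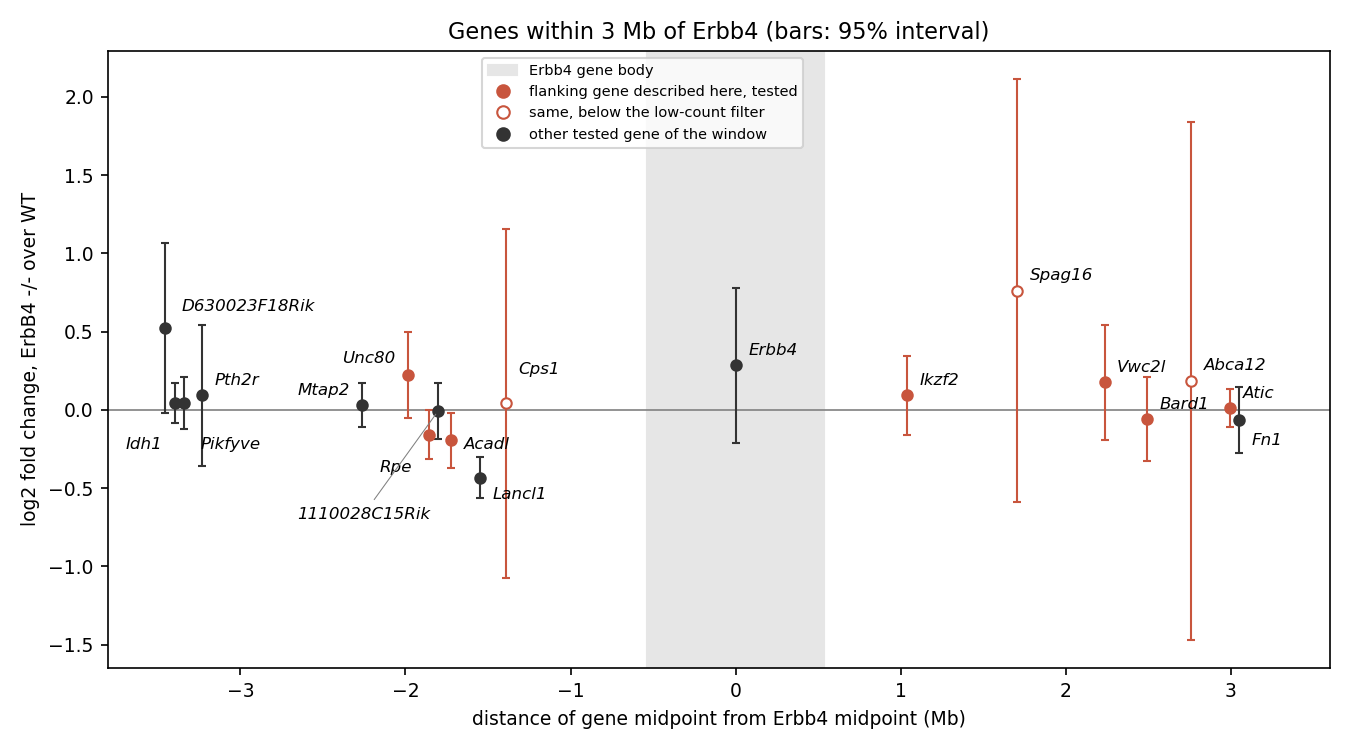
Fitted log2 fold change (libraries labelled ErbB4 -/- over WT, with its 95% interval) against the distance of the gene's midpoint from that of Erbb4 in Mb, for the 10 flanking genes and the other tested genes within 3 Mb. Filled red points are the 7 flanking genes that passed the low-count filter, open red points the 3 that did not, and the interval of Lancl1 is −0.56 to −0.30.

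Acadl encodes the long-chain acyl-CoA dehydrogenase, which begins the oxidation of fatty acids in mitochondria. It had 20.9, 18.8, 18.5 and 17.8 CPM in WT replicates 1 to 4 and 15.9, 17.2, 17.6 and 15.7 CPM in replicates 1 to 4 labelled ErbB4 -/-. The groups did not overlap, but the lowest WT library and the highest of the others nearly met. The means were 19.0 ± 1.35 and 16.6 ± 0.939 CPM (SD, n = 4 each), and the exact two-sided permutation test gave p = 0.0286, the smallest that 4 against 4 allow. In edgeR's test the log2 fold change was −0.19 (SE 0.080, 95% interval −0.37 to −0.02, unadjusted p = 0.0333, adjusted p = 0.81). Acadl was 1 of 10 genes, or 1 of the 7 that passed the filter, whose groups did not overlap, against 3.34% of all genes tested (1.48% lower under that label, as Acadl). Without WT replicate 1 the log2 fold change was −0.15, and with Xist as a covariate it was −0.11. The unadjusted p of Acadl was not under 0.05 in either of these settings, with 1 surrogate variable, with the length trend removed, or without replicate 1 or replicate 4 labelled ErbB4 -/-. Among the Xist-low libraries, the sole WT library (replicate 4) lay just above the 4 labelled ErbB4 -/-.

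The other acyl-CoA dehydrogenases and their relatives formed a list of 11 tested enzymes of fatty acid and amino acid breakdown. It had 0 adjusted calls in edgeR and 2 at an unadjusted p under 0.05, against 5.53% of all genes tested. Fitted values were below 0 for 9 and above 0 for 2, with a median of −0.08. Over all genes tested, 7459 fitted values were below 0 and 7237 above, the background for this and each later list. No list was tested as a set. Acads, the short-chain enzyme, had 20.03 ± 1.22 CPM in WT and 17.2 ± 0.545 CPM in libraries labelled ErbB4 -/- (SD, n = 4 each), a log2 fold change of −0.22 (edgeR's adjusted p = 0.81). Its libraries did not overlap either, with 18.9 CPM the lowest WT value and 17.9 CPM the highest of the others. Ivd, of leucine breakdown, had −0.14, and Acadvl, the very-long-chain enzyme, −0.11. None of these passed the adjusted test.

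Rpe encodes ribulose-phosphate 3-epimerase of the pentose phosphate pathway, which supplies NADPH and ribose. It had 37.9, 35.0, 37.0 and 33.9 CPM in WT replicates 1 to 4 and 30.4, 30.1, 34.8 and 33.8 CPM in replicates 1 to 4 labelled ErbB4 -/-. The groups overlapped, because replicate 3 labelled ErbB4 -/- lay above WT replicate 4, while the lowest values were replicates 1 and 2 of that label. The means were 36.0 ± 1.81 and 32.3 ± 2.39 CPM (SD, n = 4 each). The log2 fold change was −0.16 (SE 0.072, 95% interval −0.32 to 0.0016, edgeR's adjusted p = 0.81), and the exact two-sided permutation test gave p = 0.0571. With Xist as a covariate the log2 fold change was −0.076. The adjoining and overlapping 1110028C15Rik differed little between the groups, with 28.8 ± 2.83 and 28.7 ± 1.29 CPM. Of 7 tested genes of the pentose phosphate pathway, 5 had fitted values below 0 and 2 above, with a median of −0.10 and 0 calls before or after adjustment in edgeR. Pgd (−0.11), Tkt (−0.10) and Taldo1 (−0.11) had the smallest p-values, and without WT replicate 1 these were −0.059, −0.031 and −0.015.

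Atic encodes the bifunctional enzyme that closes the de novo synthesis of purine nucleotides. It was the most precisely measured of the 10, with 2186 to 3758 reads per library. Atic had 78.0, 72.7, 79.9 and 75.2 CPM in WT replicates 1 to 4 and 76.3, 74.7, 79.5 and 77.8 CPM in replicates 1 to 4 labelled ErbB4 -/-. The range of the libraries labelled ErbB4 -/- lay within that of WT. The means were 76.4 ± 3.13 and 77.1 ± 2.09 CPM (SD, n = 4 each), and the log2 fold change was 0.012 (SE 0.055) with a 95% interval of −0.11 to 0.13 (edgeR's adjusted p = 0.968, exact permutation p = 0.743). Of 12 genes of de novo purine synthesis, 9 had fitted values below 0 and 3 above (median −0.05), and edgeR called 0 before or after adjustment. Gart had −0.11, Paics −0.10 and Impdh2 −0.15. Without WT replicate 1 Paics was −0.047 and Impdh2 −0.061, and without WT replicate 3 Gart was −0.055.

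Cps1 encodes the mitochondrial carbamoyl phosphate synthetase that opens the urea cycle, chiefly in liver and intestine. It was barely detected in cortex. Counts were 8, 8, 5 and 5 reads in WT replicates 1 to 4 and 9, 3, 14 and 6 reads in replicates 1 to 4 labelled ErbB4 -/-, or 0.204 ± 0.0788 and 0.205 ± 0.113 CPM (SD, n = 4 each). The log2 fold change without a filter was 0.04 with an interval of −1.07 to 1.16, so a difference of less than about that size was not detectable at this depth. The liver markers of the marker lists summed to at most 0.535 CPM in any library, and 2 of the 5 (Serpina1a and Fgb) were at 0 throughout. Of the 7 urea cycle genes listed, 4 were tested, 2 with fitted values above 0 and 2 below. In edgeR 0 were called after adjustment and 1 before it, where 5.53% of all genes tested were called before adjustment. Asl had a log2 fold change of −0.18 and Ass1 of 0.49.

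Unc80 encodes a large scaffold subunit of the NALCN channel complex, which carries the sodium leak current of neurons. It had 5.56, 8.09, 7.45 and 7.98 CPM in WT replicates 1 to 4 and 8.97, 8.65, 7.63 and 8.74 CPM in replicates 1 to 4 labelled ErbB4 -/-. WT replicate 1 was the lowest, and the other WT libraries overlapped the range of the label ErbB4 -/-. The means were 7.27 ± 1.17 and 8.50 ± 0.593 CPM (SD, n = 4 each), a log2 fold change of 0.22 (SE 0.126, 95% interval −0.05 to 0.50, edgeR's adjusted p = 0.81). The exact two-sided permutation test gave p = 0.0857. The log2 fold change was 0.12 without WT replicate 1, 0.11 with Xist as a covariate and 0.078 with 1 surrogate variable.

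Partners of Unc80 were also lowest in that library. Unc79, which binds Unc80, had 55.9 CPM in WT replicate 1 and 73.8 to 80.0 CPM in the other 7 libraries. Nalcn, the pore-forming subunit, had 18.3 CPM there and 22.4 to 32.1 CPM elsewhere, and Erbb4 had 8.99 CPM there and 19.2 to 25.3 CPM elsewhere. In edgeR's fit all 4 genes of the NALCN list had values above 0 (median 0.18), with 0 calls before or after adjustment, and Unc79 and Tmem28 turned below 0 under 1 alternative each. Nalcn had 0.24, Unc79 0.13 and Tmem28, a channel subunit now named Fam155b, 0.22. Without WT replicate 1 these were 0.13, 0.028 and 0.095, and Nalcn was 0.40 without WT replicate 2.

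Vwc2l encodes a secreted protein with von Willebrand factor C domains that is expressed in brain. It had 3.85, 6.83, 4.51 and 5.33 CPM in WT replicates 1 to 4 and 6.09, 4.998, 6.43 and 5.69 CPM in replicates 1 to 4 labelled ErbB4 -/-. Both the lowest and the highest value were in WT libraries. The means were 5.13 ± 1.29 and 5.80 ± 0.615 CPM (SD, n = 4 each), a log2 fold change of 0.18 (SE 0.168, 95% interval −0.19 to 0.55, edgeR's adjusted p = 0.83, exact permutation p = 0.343). It was 0.07 without WT replicate 1, 0.12 without WT replicate 3, 0.34 without WT replicate 2 and 0.022 with 1 surrogate variable. Of 8 tested genes of its family and of auxiliary proteins of AMPA receptors, 7 had fitted values above 0 and 1 below (median 0.18), and edgeR called 0 after adjustment and 2 before it. Those were Shisa9 (0.36) and Cnih3 (0.30), each with an adjusted p of 0.81, and Shisa6 had 0.23. Vwc2, a paralogue of Vwc2l, was the gene below 0 (−0.12), with 2.61 to 3.96 CPM in WT and 2.16 to 3.33 CPM in libraries labelled ErbB4 -/-. Shisa9 had 14.3 to 17.7 CPM in WT and 18.1 to 23.7 CPM in libraries labelled ErbB4 -/-.

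**Figure D3:**
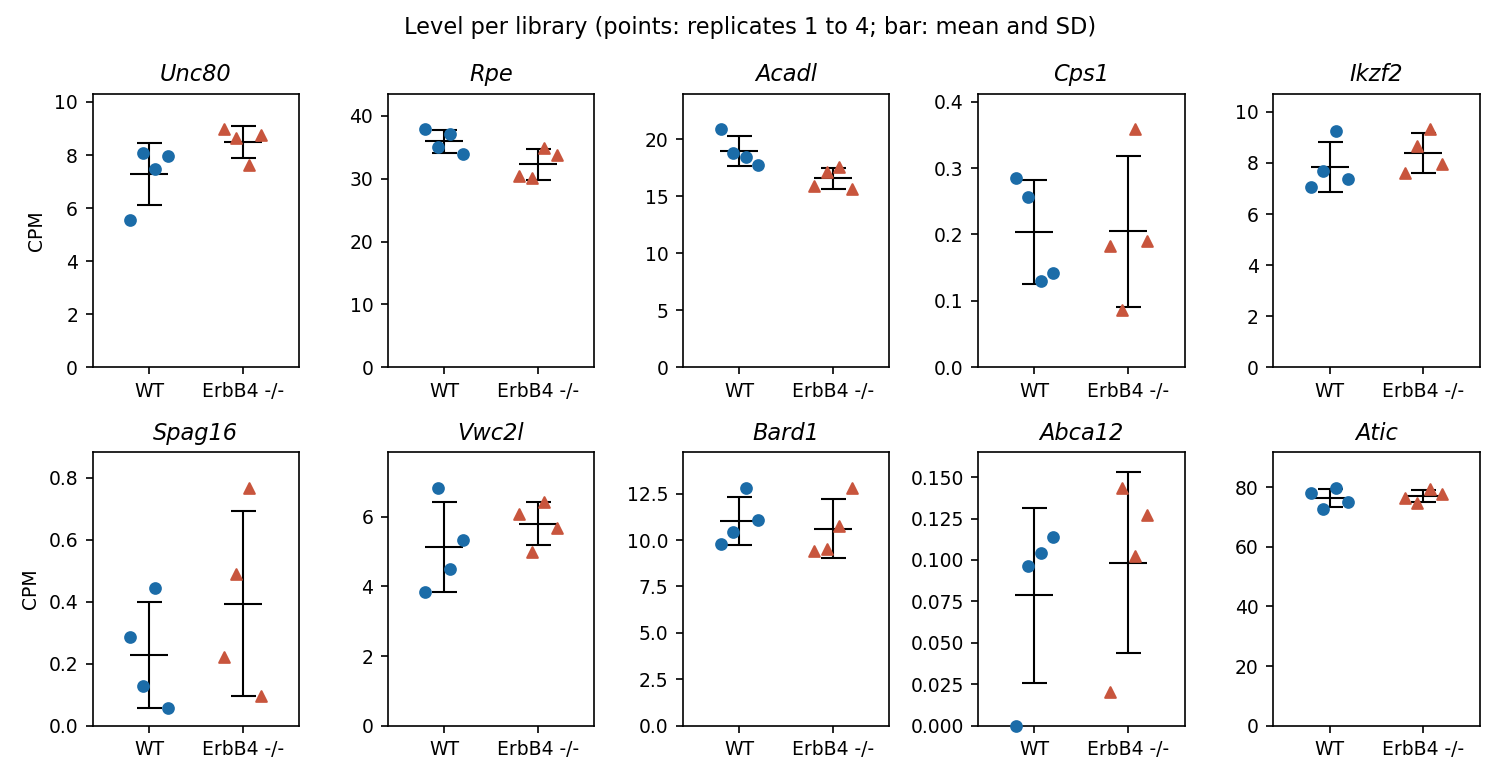
CPM of each flanking gene in every library, with points for replicates 1 to 4, a horizontal line for the mean and bars for the SD, each panel with its own axis from 0. Circles are WT and triangles are libraries labelled ErbB4 -/-, and Acadl is the gene whose groups do not overlap.

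Ikzf2 encodes Helios, a zinc finger transcription factor of the Ikaros family known from T cells and neurons, and is the closest of the 10 to Erbb4. It had 7.06, 7.67, 9.25 and 7.38 CPM in WT replicates 1 to 4 and 7.59, 8.67, 9.32 and 7.94 CPM in replicates 1 to 4 labelled ErbB4 -/-. The ranges overlapped over most of their length. The means were 7.84 ± 0.974 and 8.38 ± 0.772 CPM (SD, n = 4 each), a log2 fold change of 0.09 (SE 0.115, 95% interval −0.16 to 0.34, edgeR's adjusted p = 0.86, exact permutation p = 0.371). It was 0.046 without WT replicate 1, 0.18 without WT replicate 3 and 0.038 without replicate 3 labelled ErbB4 -/-, and between 0.027 (1 surrogate variable) and 0.20 (Xist as a covariate) under the other settings. Of its 4 relatives 3 were tested, and edgeR called 0 before or after adjustment. Ikzf4 had 0.12, Ikzf5 −0.04 and Ikzf1 0.018, and each of these changed sign under at least 1 alternative or with a library left out.

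Bard1 encodes the RING partner of Brca1 in the repair of DNA breaks by homologous recombination. It had 9.77, 10.5, 12.8 and 11.1 CPM in WT replicates 1 to 4 and 9.40, 9.51, 10.8 and 12.8 CPM in replicates 1 to 4 labelled ErbB4 -/-. The highest library of each label reached the same level. The means were 11.0 ± 1.31 and 10.6 ± 1.58 CPM (SD, n = 4 each), a log2 fold change of −0.06 (SE 0.123, 95% interval −0.33 to 0.21, edgeR's adjusted p = 0.918, exact permutation p = 0.629). Those same libraries, WT replicate 3 and replicate 4 labelled ErbB4 -/-, also had the highest levels of the proliferation marker Mki67, at 260 and 239 CPM, against 165 to 207 CPM in the other 6. Brca1 was at 37.5 CPM in the first and 32.3 CPM in the second, each the highest of its label. The part of proliferating cells in the spread of Bard1 was not tested. Of 11 tested partners of the complex, 9 had fitted values below 0 and 2 above (median −0.05). In edgeR 0 were called after adjustment and 2 before it, where 5.53% of all genes tested were called before adjustment. Brca1 had a log2 fold change of −0.19 and Palb2 of −0.16.

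**Figure D4:**
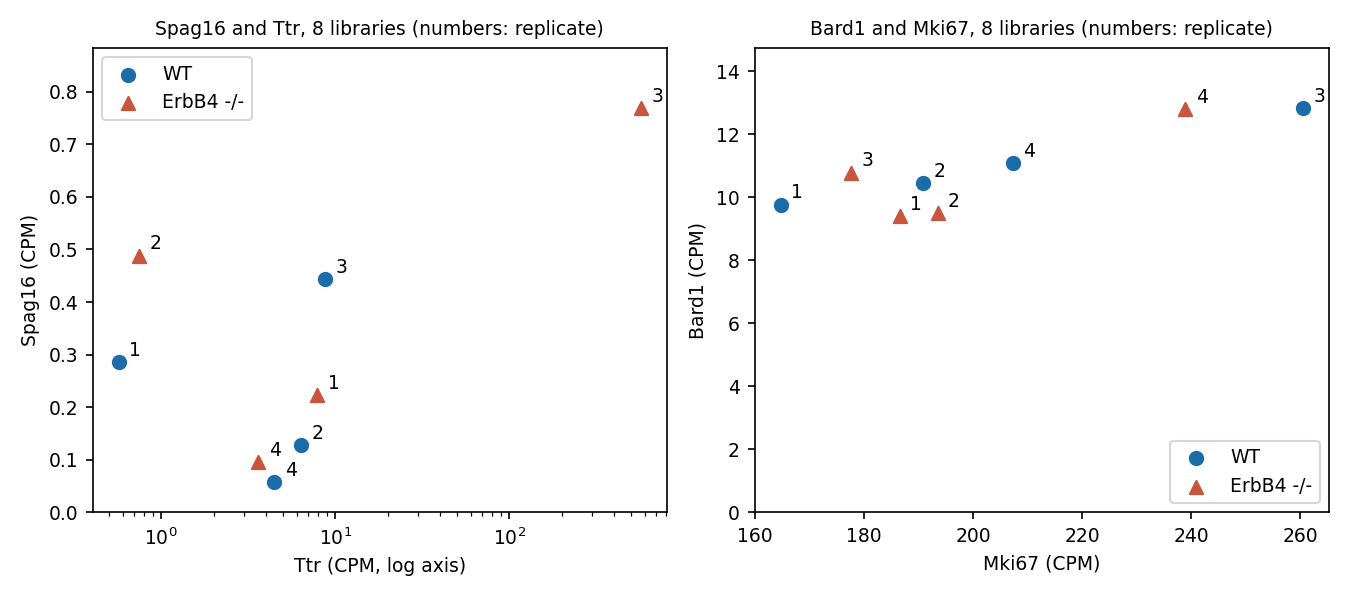
Spag16 against Ttr (left, log axis for Ttr) and Bard1 against Mki67 (right), in CPM, with each point a library, circles for WT, triangles for ErbB4 -/- labels and the replicate number beside it. Replicate 3 labelled ErbB4 -/- has 572 CPM of Ttr and the highest Spag16, and WT replicate 3 and replicate 4 labelled ErbB4 -/- have the highest Mki67 and Bard1.

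Spag16 encodes a protein of the central apparatus of motile cilia, which are found on ependymal and choroid plexus cells in brain. Counts were 8, 4, 17 and 2 reads in WT replicates 1 to 4 and 11, 17, 30 and 3 reads in replicates 1 to 4 labelled ErbB4 -/-. In CPM these were 0.285, 0.128, 0.443 and 0.0570, and 0.223, 0.488, 0.768 and 0.0953, with wide overlap. The means were 0.228 ± 0.172 and 0.394 ± 0.299 CPM (SD, n = 4 each), and without a filter the log2 fold change was 0.76 with an interval of −0.59 to 2.12 (edgeR's adjusted p = 0.813, exact permutation p = 0.429). It was 0.22 without replicate 3 labelled ErbB4 -/-, 0.44 without WT replicate 4, 1.36 without WT replicate 3 and 2.71 with Xist as a covariate. Replicate 3 labelled ErbB4 -/- had 572 CPM of Ttr, the main product of choroid plexus epithelium, against 0.571 to 8.76 CPM in the other 7. It had 9.09 CPM of Folr1 against 0.107 to 0.706. Foxj1, the regulator of motile cilia, had 15.8 CPM there against 8.44 to 12.1 CPM elsewhere, and Rsph1 1.38 CPM against 0.313 to 0.481. The cilia gene Dnahc5 of the same list was not high in that library, with 1.02 CPM against 0.642 to 1.86 elsewhere, and Kl had 0.41 CPM against 0.122 to 0.385. Replicate 2 labelled ErbB4 -/-, with the next highest Spag16 (0.488 CPM), had 0.747 CPM of Ttr and 8.44 CPM of Foxj1.

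The 6 markers of ciliated and choroid plexus cells summed to 13.4 to 21.9 CPM in WT and 11.2 to 599.8 CPM in libraries labelled ErbB4 -/-, of which 5 passed the filter and 0 were called by edgeR. None of the 6 was at 0 in all libraries, and the part of these cells in the Spag16 reads was not tested. Of 6 genes of the ciliary central apparatus 4 were tested, 2 with fitted values above 0 and 2 below. In edgeR 0 were called after adjustment and 2 before it, where 5.53% of all genes tested were called before adjustment. Spag6 had 0.38, Spef1 −0.18 and Hydin 0.22, and Hydin was 0.026 without replicate 3 labelled ErbB4 -/-.

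Abca12 encodes a transporter that loads lipid into the lamellar granules of keratinocytes. It was at the floor, with 0, 3, 4 and 4 reads in WT replicates 1 to 4 and 1, 5, 4 and 4 reads in replicates 1 to 4 labelled ErbB4 -/-, or 0.0786 ± 0.0529 and 0.0984 ± 0.0547 CPM (SD, n = 4 each). The 0 reads of WT replicate 1 allow a level of up to 0.106 CPM. The unfiltered log2 fold change had an interval of −1.47 to 1.84, and a difference was not detectable at this depth. Of the 15 listed ABCA transporters 10 were tested, 8 with fitted values above 0 and 2 below (median 0.16). In edgeR 0 were called after adjustment and 2 before it, where 5.53% of all genes tested were called before adjustment. Abca1, the cholesterol exporter, had 0.26, Abca8a 0.30 and Abca4 0.47, and with Xist as a covariate these were 0.48, 0.15 and 0.21.

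Among the other genes of the neighbourhood, Lancl1, which encodes a glutathione-binding protein, passed the test. It lies 0.993 Mb from Erbb4, between Acadl and Cps1. It had 116, 99.8, 101 and 102 CPM in WT replicates 1 to 4 and 78.4, 78.0, 76.5 and 76.9 CPM in replicates 1 to 4 labelled ErbB4 -/-, a log2 fold change of −0.43 (SE 0.059, edgeR's adjusted p = 0.0448). This call held with DESeq2 (its adjusted p = 1.2e-07) but was lost under several settings of edgeR (given among the processing limits). The log2 fold change stayed between −0.45 and −0.36. Acadl, the nearest tested gene on its one side, had the interval of −0.37 to −0.02 given above. Myl1, which lies between Acadl and Lancl1, had 0 to 2 reads per library and was not tested. Cps1, on the other side, could not be measured closely enough to compare. Within 3 Mb of Erbb4, 17 other genes were counted and 8 tested, 5 with fitted values above 0 and 3 below, with a median size of 0.054. Beyond Atic and outside the 3 Mb, March4 had 0.26, Igfbp5 0.10 and Rpl37a −0.15. None had an adjusted p under 0.05 in edgeR's test. The unadjusted p of March4 in that test was 0.00658, and its groups overlapped. Rpl37a was at 0.046 without WT replicate 1. Igfbp5 was at 0.063 without WT replicate 4, 0.15 without WT replicate 2 and 0.20 with Xist as a covariate.

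The genes whose profile over the 8 libraries was most like that of Acadl were Pmm2 and Arpc1b, with root mean square differences of 0.045 and 0.047 in centred log2 CPM. For Rpe they were Gnpda2 (0.037) and Sox7 (0.038), and for Unc80 March3 (0.052) and Sema3d (0.057). None of these 6 lies on chromosome 1.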

How the data were processed

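The 8 polyA-selected, unstranded libraries of E15.5 dorsal cortex (RNA integrity number above 8, 50-nucleotide single-end reads) were mapped to mm9 with HISAT and counted per gene symbol with HTSeq by the authors, per the methods and the submitters' processing notes. The deposited files hold these raw counts. Versions, gene annotation and counting mode are not given in the sources used here. The authors' table of DESeq2 fold changes and p-values was not used.

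Counts of 23284 symbols were joined, and groups came from the labels. The quasi-likelihood F test of edgeR 4.0.16 (R 4.3.3) was fitted with TMM scaling to the 14696 genes that filterByExpr kept (count of 10, total of 15), p-values were adjusted by Benjamini-Hochberg over all of them, and an adjusted p under 0.05 was a call. The common biological coefficient of variation was 10.7%. CPM used TMM-scaled totals, and log2 CPM a prior count of 2. For single values an exact permutation test, two-sided, enumerated the 70 assignments. Members that failed the filter were fitted without it. No 2 libraries agreed within sampling noise (smallest chi-square per degree of freedom 5.45). Positions and exon lengths came from GENCODE for NCBIM37, and promoter windows from RefSeq. Intervals are 95%.

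The alternatives were DESeq2 1.42.0, relative log expression (RLE) scaling, a filter at a mean of 50 counts or none, terms for replicate number (a block), for Xist or for 1 surrogate variable from sva 3.50.0, and each library left out. A correction for a trend with exon length, and unfiltered versions of the other settings, were added after seeing the data. The code was tested on simulated data.

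The genes, partner lists and marker lists were chosen with earlier results of these data known. Text names every member, Erbb4, from a list of 18 other neighbours any called and the 3 others with the smallest unadjusted p, up to 3 genes of each partner list by p (some are not reported here), and the 2 genes closest in profile to each of the 3 members with the smallest p. 1110028C15Rik, D630023F18Rik, Mtap2, Idh1, Pikfyve, Fn1, the crystallin genes, Mki67, Xist, Ddx3y and the markers were named after their values were seen.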

Additional observations from a re-analysis of the deposited data

Results flagged for a closer look

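Of 90 groups of 4 libraries looked at (45 genes), 4 had a library whose gap to its nearest neighbour exceeded Dixon's 95% critical value, and chance flags about 1 in 20 such groups. Abca12 had 0 CPM in WT replicate 1, where the other WT libraries had 0.0963 to 0.114 CPM, a matter of 0 reads against 3 to 4. Lancl1 had 116 CPM in WT replicate 1 against 99.8 to 102 CPM in the other WT libraries. Rpl37a, a ribosomal protein gene beyond Atic, had 52.5 CPM in WT replicate 1 against 32.9 to 33.7 CPM. Acadvl, listed with Acadl, had 50.2 CPM in replicate 3 labelled ErbB4 -/- against 44.9 to 45.6 CPM in the others of that label. The causes were not tested.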

How the results depend on the processing

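In the 16 alternatives run, 0 members were called under any, and the median log2 fold change of the tested members stayed between −0.011 and 0.034. Over all genes, 4 were called, against 23 with DESeq2 and 1 each with RLE scaling, the replicate block or Xist as a covariate. With single libraries left out the count ran from 1 to 13, at 13 without WT replicate 4, 6 without WT replicate 1, 2 without WT replicate 2 or replicate 4 labelled ErbB4 -/-, and 1 without any of the other 4. The number of members whose groups did not overlap was 1 to 3, at 2 (Acadl and Rpe) without WT replicate 4, where 5.79% of the genes tested did not overlap, and 3 (Unc80 as well) without replicate 3 labelled ErbB4 -/-, where 4.9% did not. Over all 8 libraries left out in turn, that share of genes was 4.5% to 9.95%. Deviations of same-numbered libraries correlated at 0.0236 to 0.135, and not every library correlated best with its own number, so the numbers were not taken to pair them, and the block turned Cps1 to −0.012.

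The call of Lancl1 was lost with RLE scaling (edgeR's adjusted p = 0.0502), the replicate block (0.154), Xist as a covariate (1.00), and without any 1 of WT replicates 2 to 4 or the 4 libraries labelled ErbB4 -/- (0.0624 to 0.293), and it was 0.00628 without WT replicate 1. The call of Lancl1 held with DESeq2 (its adjusted p = 1.2e-07). In edgeR it held with 1 surrogate variable (adjusted p = 0.0125) and with the length trend removed (0.0342). Without a filter edgeR's adjusted p was 0.0287, and with a filter at a mean of 50 counts 0.0457. With 1 surrogate variable the sign turned for Erbb4 (−0.041), Rpl37a (0.10), Unc79 (−0.0093), Taldo1 (0.014), Ikzf4 (−0.072), Ikzf1 (−0.079) and Hydin (−0.015). With Xist it turned for Tmem28 (−0.028), Palb2 (0.0044) and Abca12 (−0.14), and with the length trend removed for Atic (−0.0090) and Ikzf1 (−0.0044). With single libraries left out, values crossed 0 for Bard1 (−0.16 to 0.021), Atic (−0.011 to 0.034), Rpl37a (−0.21 to 0.046), Ikzf4 (−0.014 to 0.20), Ikzf5 (−0.090 to 0.0094), Ikzf1 (−0.051 to 0.14), Cps1 (−0.36 to 0.28) and Abca12 (−0.16 to 0.58). Without WT replicate 1, Acadvl was −0.054, Shisa6 0.13 and Spef1 −0.11, and without WT replicate 3 Palb2 was −0.058. Ass1 was 0.24 without WT replicate 4, 0.73 without WT replicate 2 and 1.58 with Xist as a covariate. Apart from Lancl1, none of these was called in any setting, and the cause was not tested. Mtap2 (−0.021) and Pikfyve (−0.024), described below, also turned below 0 without WT replicate 1. Depth limits Cps1, Spag16 and Abca12, with 0 to 30 reads per library.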

Other observations

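The remaining counted neighbours within 3 Mb of Erbb4 spanned a wide range of level. Mtap2, which encodes the dendritic microtubule protein MAP2 and lies 1.59 Mb away beside Unc80, had 1286 ± 98.5 CPM in WT and 1313 ± 54.9 CPM in libraries labelled ErbB4 -/- (SD, n = 4 each), a log2 fold change of 0.03. Idh1, the cytosolic isocitrate dehydrogenase, had 453.6 ± 32.8 and 467.4 ± 7.29 CPM (0.04). Pikfyve, a phosphoinositide kinase of endosomes, had 66.5 ± 6.95 and 68.5 ± 1.54 CPM (0.04), and Fn1, which encodes fibronectin on the minus strand and whose 3′ end lies 5888 nucleotides beyond Atic, had 61.5 ± 8.14 and 58.9 ± 4.95 CPM (−0.06). None of these passed edgeR's test (adjusted p = 0.925, 0.868, 0.90 and 0.881). Without WT replicate 1 the log2 fold changes were −0.021 for Mtap2, 0.093 for Idh1, −0.024 for Pikfyve and −0.15 for Fn1. D630023F18Rik, 2.91 Mb away, had 0.787 ± 0.213 CPM in WT and 1.11 ± 0.185 CPM in libraries labelled ErbB4 -/- (SD, n = 4 each). Its log2 fold change of 0.52 (95% interval −0.018 to 1.07, unadjusted p = 0.0569 and adjusted p = 0.81 in edgeR's fit) was the largest fitted value among the tested genes of the window. Cryge, Crygd, Crygc and Crygf, lens crystallin genes of the same window, had 0 reads in all 8 libraries.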
